A study of Rattus norvegicus with 24 samples.

Results

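The angiotensin and kinin system genes are a set of 8 rat genes: Agt, Ace, Agtr1a, Agtr1b, Agtr2, Prcp, Bdkrb1 and Bdkrb2. They were chosen by name, as all array probes whose transcript accession belongs to one of these symbols in the rat RefSeq gene table, and they make up 8 of the 15168 genes named on the array. All 8 had a probe, 9 probes in all, with 2 probes for Ace and 1 for each of the others. Agilent arrays in a single colour read out heart muscle RNA from 24 rats, 4 in each of 6 groups, with 2 males and 2 females per group. The sham rats are not among the groups for which the labels name a coronary ligation. The IRI rats had myocardial ischaemia-reperfusion injury made by tying the left anterior descending coronary artery. The Jiaji, Neiguan, Yanglingquan and Quchi rats first had 7 days of acupuncture, at the acupoint that names the group, and then the same injury. No group had acupuncture without injury, or a needle at a place that is no acupoint, so the injury is shared by all acupuncture groups. The labels name no rat strain, no age and no time from injury to collection of the tissue.

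In the angiotensin system, angiotensinogen, the product of Agt, is first cut to a short peptide, which angiotensin converting enzyme, the product of Ace, trims to angiotensin II. Angiotensin II raises blood pressure and drives growth and fibrosis of heart muscle through the type 1 receptor, which rodents make from a pair of closely related genes, Agtr1a and Agtr1b, while the type 2 receptor, from Agtr2, often opposes it. Kinins such as bradykinin widen vessels and act through the B2 receptor, made constantly from Bdkrb2, and the B1 receptor, made from Bdkrb1 mostly after injury or inflammation. The systems meet in shared enzymes: the enzyme from Ace also destroys bradykinin, and prolylcarboxypeptidase, from Prcp, trims angiotensin II and takes part in the activation of plasma kallikrein, which releases bradykinin.

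A level is the log2 processed signal less the 75th percentile of its array, so that a level of 0 is the 75th percentile and a difference of 1 is a doubling. They were compared with limma over all 24 arrays with sex in the model. A difference with an adjusted p under 0.05 over the 12894 genes tested is referred to as called. A level belongs to its own probe and is not set against that of another probe. In heart muscle as a whole, fewer cells of a type and less RNA per cell cannot be told apart. Nothing in the labels says more of the samples' origin than their numbers, so the p-values rest on the spread among these 24 samples, which may be technical.

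The 11 cardiomyocyte markers listed, such as Myh6 and Tnnt2, were well above background on all 24 arrays, as the heart muscle label requires. The mean share of probes well above background lay between 80.1% and 84.8% in 5 groups and was 73.5 ± 2.53% (SD, n = 4) in Yanglingquan. Slides were told apart only by the time of their scan. Each group had a scan of its own, so scan and group cannot be told apart. Quchi replicate 1 was the exception, scanned apart from the other 3 on a day of its own. Sham and IRI were scanned on day 1 and the other acupuncture arrays on day 2, so differences of the acupuncture groups from sham or IRI also span scan days, while those among Jiaji, Neiguan and Yanglingquan do not, and those with Quchi do so through its replicate 1. All acupuncture groups were compared with the same 4 IRI and the same 4 sham arrays, so the values of these comparisons share their controls.

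Agtr1b, Prcp and Bdkrb2 were the genes of the set that passed the test in a comparison of groups. Agtr1b was higher in Jiaji and Neiguan than in sham, by 4.85-fold and 3.33-fold. Its probe was dim, well above background on 3 of 4 sham arrays. Another background correction and scaling brought these log2 differences from 2.28 and 1.73 down to 0.54 and 0.41. Prcp was lower in Quchi and Yanglingquan than in sham, by 3.55-fold and 2.31-fold. Of all genes, 24% were called in Jiaji, 19.9% in Neiguan, 21.1% in Quchi and 13% in Yanglingquan against sham. Bdkrb2 was lower in Yanglingquan than in IRI, by 1.57-fold, a call that other scalings of the arrays ended. In the injury alone, IRI against sham, 0 of the 6 tested genes were called by limma, against 5.75% of all genes, with 0 of the 6 at an unadjusted p under 0.05.

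**Figure D1:**
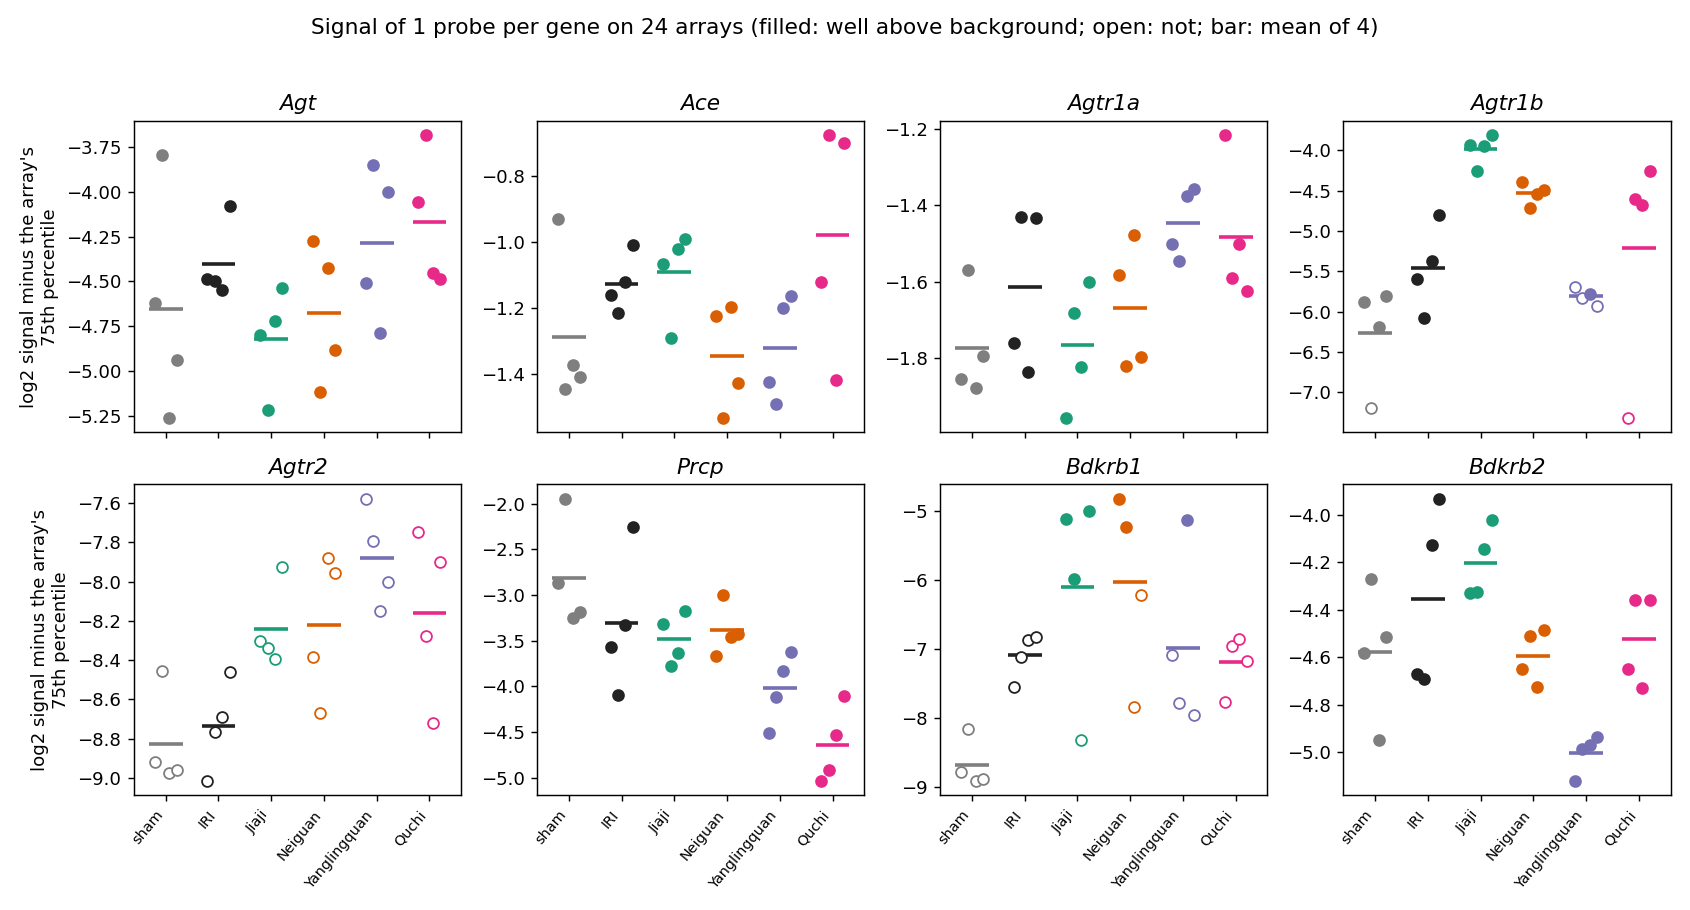
Level of 1 probe per gene on each of 24 arrays, on the log2 scale relative to the array's 75th percentile, with the mean of 4 as a bar. Filled points were well above background. The Jiaji and Neiguan arrays of Agtr1b lie above all sham and IRI arrays, and the Quchi arrays of Prcp are the lowest. The vertical scale differs between genes.

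Agt encodes the precursor of all angiotensins and was well above background on all 24 arrays. On the sham arrays its level was −4.62, −3.79, −5.26 and −4.94, and on the IRI arrays −4.48, −4.50, −4.55 and −4.08. These ranges overlapped, and IRI minus sham was 0.25 ± 0.21 (SE; limma adjusted p = 0.615). Among the acupuncture groups the means ran from −4.82 ± 0.29 (SD, n = 4) in Jiaji to −4.17 ± 0.38 in Quchi, with Neiguan at −4.67 and Yanglingquan at −4.29. Neighbours in that order all overlapped, and no acupuncture group differed from IRI or sham past the threshold. The moderated F test among the 4 acupoint groups gave an adjusted p of 0.0468, which held in 15 of 36 alternative settings and was 0.0680 when only arrays of the second scan day were used. Jiaji minus IRI was −0.42 ± 0.21 (limma adjusted p = 0.242) and passed the threshold in 4 alternatives that change the scaling or the source of the values, for example at −0.74 after quantile normalization (adjusted p = 0.0158).

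Agt was also the member with the clearest difference between the sexes. In the 12 females the level had a lowest value of −5.26, a median of −4.76 and a highest of −4.00, and in the 12 males it had −4.80, −4.35 and −3.69. The ranges overlapped, but the mean of the females was lower than that of the males in 6 of 6 groups. The difference, female minus male, was −0.48 ± 0.12 and missed the threshold (limma adjusted p = 0.104). None of the 6 tested genes was called between the sexes (0 of 6, against 0.209% of all genes; 1 of 6 at an unadjusted p under 0.05), and none in the interaction of injury and sex, where all had an adjusted p of 1.0.

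Ace, which encodes the enzyme that forms angiotensin II and degrades bradykinin, kept its mean level between −1.34 in Neiguan and −0.98 in Quchi on the brighter of its probes. On the sham arrays this probe read −0.93, −1.44, −1.37 and −1.41, and on the IRI arrays −1.16, −1.21, −1.12 and −1.01. The SD within groups ran from 0.09 in IRI to 0.36 in Quchi, and all neighbours in the order of the group means overlapped. No difference was called; the largest in size was Quchi minus sham at 0.31 ± 0.15 (limma adjusted p = 0.147), and the F test among the 6 groups gave an adjusted p of 0.190. The dimmer probe of Ace was well above background on 21 of 24 arrays. Its differences were not called either, and it went the other way in IRI minus sham, at −0.20 ± 0.27 where the brighter probe gave 0.16 ± 0.15.

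Agtr1a, the main type 1 receptor gene of the rodent heart, had a mean level between −1.77 in sham and −1.45 in Yanglingquan. The probe was printed 10 times on each array, so the noise between spots can be set beside the spread between arrays, which also holds labelling, hybridisation and scanning. Spots of 1 array had a pooled SD of 0.0637, and the arrays of a group a pooled SD of 0.163, so that most of the spread lay between arrays. The 4 Yanglingquan arrays, at −1.50, −1.55, −1.38 and −1.36, all lay above the 4 sham arrays, at −1.85, −1.57, −1.88 and −1.79. That difference of 0.33 ± 0.12 did not pass the threshold (limma adjusted p = 0.0862), nor did that of Quchi from sham at 0.29 ± 0.12 (adjusted p = 0.101). IRI minus sham was 0.16 ± 0.12 (adjusted p = 0.579), and the 4 acupuncture groups differed from IRI by between −0.15 and 0.17 with none called.

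**Figure D2:**
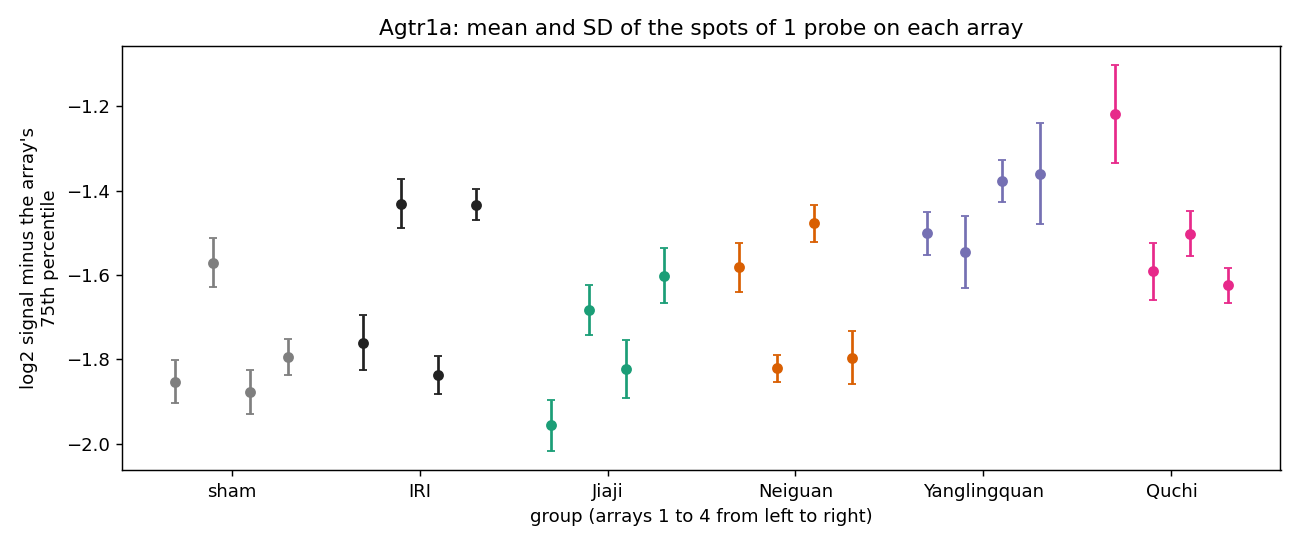
Agtr1a level on each array as the mean of the repeated spots of its probe, with the SD between those spots as bars, on the log2 scale relative to the array's 75th percentile. The bars are short beside the distances between arrays of a group, whose pooled SD was 0.163.

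Agtr1b encodes the other type 1 receptor, which in rodents is best known from the adrenal gland and pituitary. On the sham arrays its level was −5.88, −7.19, −6.19 and −5.81, and on the IRI arrays −5.60, −6.08, −5.38 and −4.80. The Jiaji arrays read −3.94, −4.26, −3.94 and −3.82, and the Neiguan arrays −4.39, −4.72, −4.54 and −4.49. All 8 of these lay above every sham and IRI array, and the Jiaji arrays lay above the Neiguan arrays. On the Yanglingquan arrays the level was −5.69, −5.83, −5.78 and −5.93, within the range of sham and IRI. The Quchi arrays read −7.32, −4.60, −4.68 and −4.26, so that 3 lay above all IRI arrays and replicate 1, the array scanned on its own, was the lowest of all 24. The probe was well above background on 19 of 24 arrays: all of IRI, Jiaji and Neiguan, 3 of sham, 3 of Quchi and 1 of Yanglingquan. It passed the filter on dim probes through IRI, Jiaji and Neiguan.

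Jiaji minus sham was 2.28 ± 0.45 (limma adjusted p = 0.000851) and Neiguan minus sham 1.73 ± 0.45 (adjusted p = 0.00999). In each of these comparisons Agtr1b was 1 of 6 tested genes called, against 24% and 19.9% of all genes. Both calls held in all 36 alternative settings, although normexp background correction with quantile normalization brought the differences down to 0.54 and 0.41. Jiaji minus IRI was 1.47 ± 0.45 (adjusted p = 0.0411), the 1 call among 6 genes in that comparison, against 10.2% of all genes. It was lost in 9 of 36 settings, among them quantile normalization (1.27, adjusted p = 0.137), the authors' processed values (1.27, 0.139), scan day as a random block (1.33, 0.136), and leaving out IRI replicate 1 (1.46, 0.0863), 2 (1.23, 0.150) or 3 (1.48, 0.0759) or Jiaji replicate 1 (1.43, 0.0957), 3 (1.49, 0.0815) or 4 (1.38, 0.0979). Neiguan minus IRI was 0.93 ± 0.45 and not called (adjusted p = 0.258; 0 of 6 genes called, against 5.63% of all genes; 0 of 6 at an unadjusted p under 0.05), although the arrays did not overlap.

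The Quchi value of Agtr1b rested on a single array. With all arrays, Quchi minus IRI was 0.25 ± 0.45 (limma adjusted p = 0.813) and Quchi minus sham 1.06 ± 0.45 (adjusted p = 0.0993). Without Quchi replicate 1 they were 0.96 (adjusted p = 0.0467) and 1.77 (adjusted p = 0.000254), and Neiguan minus IRI then also passed at 0.93 (adjusted p = 0.0293). IRI minus sham was 0.80 ± 0.45 (adjusted p = 0.378) and Yanglingquan minus IRI −0.34 ± 0.45 (adjusted p = 0.682). The level differed among the 4 acupoints (moderated F test, adjusted p = 0.0152), and on the second scan day alone the adjusted p was 8.16e-06. Among the acupuncture arrays, that setting leaves out only Quchi replicate 1, the lowest array. It was added after the data were seen, so the smaller p is not read as further support. The F test over all 4 acupoints held in 33 of 35 alternative settings, with a highest adjusted p of 0.212. In Jiaji against IRI, 2 of 11 cardiomyocyte markers were higher and 4 of 5 erythrocyte markers lower, where 10.2% of all genes were called. The summed cardiomyocyte level was 10.39 to 10.67 against 10.21 to 10.38, and the summed erythrocyte level 6.55 to 7.73 against 7.71 to 8.28. The summed atrial muscle level was 6.10 to 6.40 against 6.46 to 6.62, with 0 of 6 markers called. The part of these markers in the result was not tested. Against sham, 4 of 7 neutrophil markers were higher in Jiaji and 5 of 7 in Neiguan, with summed levels of 1.48 to 2.54 and 1.52 to 2.81 against 0.01 to 1.97 in sham, and their part was not tested either. Of the other lists against sham, cardiomyocyte markers were higher in 2 of 11 in Jiaji and 3 of 11 in Neiguan, and liver markers in 2 of 6 in each. The summed liver level went the other way, at −0.259 in Jiaji and −0.026 in Neiguan minus sham, with overlap in both. Only 2 liver markers were well above background on all arrays. Atrial muscle markers were lower in 2 of 6 in Jiaji and 1 of 6 in Neiguan, with summed levels of 6.10 to 6.40 and 6.26 to 6.39 below the 6.50 to 6.71 of sham. In Jiaji minus sham, 2 of 9 mast cell and 1 of 5 erythrocyte markers were lower. So were 1 of 9 smooth muscle and pericyte and 1 of 9 fibroblast markers. There 1 of 8 endothelial, 1 of 8 monocyte and macrophage and 1 of 5 adipocyte markers were higher. In Neiguan minus sham, 1 of 8 endothelial and 1 of 8 monocyte and macrophage markers were higher and 1 of 9 fibroblast markers lower. Of all genes, 24% and 19.9% were called in these comparisons. Of the defining neutrophil markers, Mpo did not pass the filter on dim probes.

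For the pair of type 1 receptor genes, of which Agtr1b was called and Agtr1a was not, the 250 bases before the start of each gene are shown, together with those of Prcp, the other gene with more than 1 called difference. The difference between the receptor genes was not tested. They come from the RefSeq promoter table of build GRCr8, which held 6 of the 8 genes. Capitals mark every TATAAA, the core of the TATA box, and every GGGCGG, the core site of the factor Sp1, on either strand. Agtr1a lies at chr17:34435433-34435682 (minus strand), Agtr1b at chr2:104849263-104849512 (minus strand) and Prcp at chr1:156343644-156343893 (plus strand).
Agtr1a: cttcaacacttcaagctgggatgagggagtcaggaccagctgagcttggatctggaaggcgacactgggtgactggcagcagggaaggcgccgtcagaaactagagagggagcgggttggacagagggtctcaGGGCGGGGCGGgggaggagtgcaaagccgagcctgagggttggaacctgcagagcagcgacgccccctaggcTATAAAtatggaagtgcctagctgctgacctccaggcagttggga
Agtr1b: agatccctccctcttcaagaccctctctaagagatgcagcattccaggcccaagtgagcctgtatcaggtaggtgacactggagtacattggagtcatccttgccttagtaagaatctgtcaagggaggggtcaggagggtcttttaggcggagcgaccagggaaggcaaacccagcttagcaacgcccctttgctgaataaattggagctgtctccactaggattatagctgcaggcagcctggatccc
Prcp: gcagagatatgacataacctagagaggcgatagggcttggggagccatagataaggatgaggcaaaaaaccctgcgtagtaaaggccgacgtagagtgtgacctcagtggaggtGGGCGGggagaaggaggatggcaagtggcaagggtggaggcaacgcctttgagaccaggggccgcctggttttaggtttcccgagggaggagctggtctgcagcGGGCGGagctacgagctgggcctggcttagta
The window of Agtr1a held 1 TATAAA, 45 bases before the start, and 2 overlapping GGGCGG beginning 117 and 112 bases before it. The window of Agtr1b held 0 of either. The window of Prcp held 0 TATAAA and 2 GGGCGG, beginning 136 and 32 bases before the start. In all 33469 promoter windows of this length, TATAAA was present in 12.9% and GGGCGG in 30.5%. TGANTCA, the AP-1 site, was searched on both strands too, occurred in 6.34% of all windows and had 0 matches in these 3. A match describes the letters of the window only. The array probes' own sequences were not used here, so how far the 2 receptor probes tell these closely related transcripts apart was not tested.

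Agtr2, the type 2 receptor gene, was well above background on 0 of 24 arrays. Its probe read between −9.02 and −7.58, and only a bound on its level can be given. It therefore entered only the fit without the filter on dim probes, and no fold is stated.

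**Figure D3:**
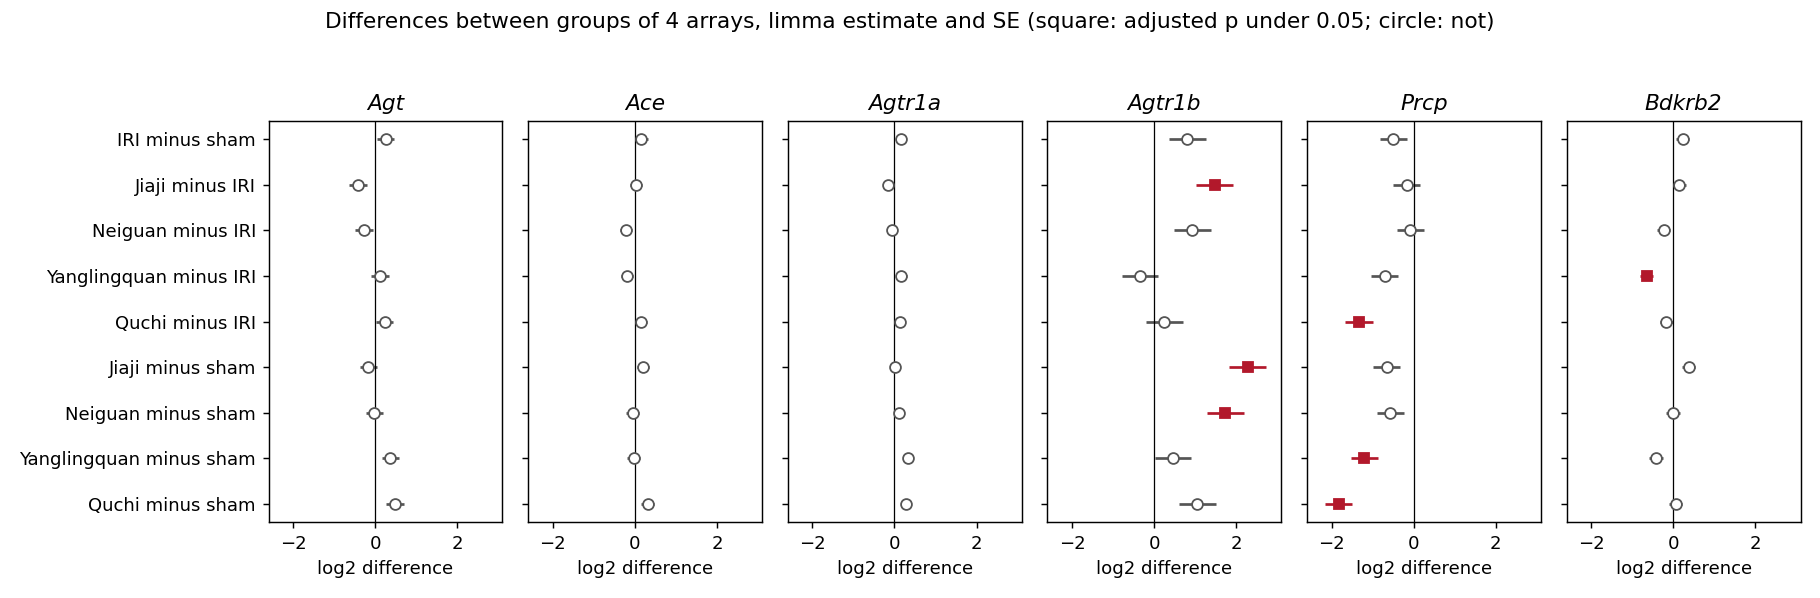
Differences between groups for the 6 tested genes, limma estimate with SE on the log2 scale, for IRI minus sham and each acupuncture group minus IRI or sham. Squares have an adjusted p under 0.05. The 7 squares are 3 for Agtr1b, all to the right of 0, and 3 for Prcp and 1 for Bdkrb2, all to the left.

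Prcp encodes prolylcarboxypeptidase, a lysosomal peptidase that removes the last residue of angiotensin II. All 24 arrays measured it well above background. On the sham arrays its level was −2.87, −1.94, −3.25 and −3.19, and on the IRI arrays −3.57, −4.09, −3.32 and −2.25. These overlapped, and IRI minus sham was −0.49 ± 0.33 (SE; limma adjusted p = 0.494). The Jiaji arrays read −3.32, −3.78, −3.63 and −3.18, and the Neiguan arrays −3.67, −2.99, −3.46 and −3.42, all within the range of IRI. The Yanglingquan arrays read −4.51, −4.12, −3.83 and −3.62, and the Quchi arrays −5.04, −4.91, −4.53 and −4.10. All 8 of these lay below every sham array, and the Quchi arrays lay just below every IRI array, the nearest at −4.10 against −4.09.

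Quchi minus sham was −1.83 ± 0.33 (limma adjusted p = 0.000825), the 1 call among 6 genes, against 21.1% of all genes, and this call held in all 37 alternatives. Yanglingquan minus sham was −1.21 ± 0.33 (adjusted p = 0.0216), the 1 call among 6 genes, against 13% of all genes. It was lost without sham replicate 2 (−0.91, adjusted p = 0.101), Yanglingquan replicate 1 (−1.02, 0.0663) or Yanglingquan replicate 2 (−1.16, 0.0537), with the 2 groups fitted alone (−1.21, 0.0667) and with scan day as a random block (−1.24, 0.0531). Quchi minus IRI was −1.34 ± 0.33 (adjusted p = 0.0290), the 1 call among 6 genes, against 3.44% of all genes. It was lost without IRI replicate 1 (−1.44, 0.0564), 3 (−1.33, 0.0694) or 4 (−0.98, 0.118), without Quchi replicate 1 (−1.18, 0.0602) or 2 (−1.23, 0.134), in a fit of the 2 groups alone (−1.34, 0.176) and with scan day as a random block (−1.35, 0.0732). Normexp background correction with quantile normalization kept all these calls and moved the differences to −1.16, −0.68 and −0.81.

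The remaining differences of Prcp were not called, among them Yanglingquan minus IRI at −0.71 ± 0.33 (limma adjusted p = 0.176) and Jiaji minus sham at −0.66 ± 0.33 (adjusted p = 0.151). Prcp differed among the 6 groups (moderated F test, adjusted p = 0.00279) and among the 4 acupoints (adjusted p = 0.0160, and 0.00559 on the second scan day alone). The F test among the acupoints held in 34 of 36 alternative settings. In Quchi against IRI, 1 of 8 endothelial markers was lower, and the summed endothelial level of 5.31 to 5.57 lay just below that of IRI, 5.57 to 5.89, with Egfl7 and Vwf not tested. Against sham, 4 of 7 neutrophil markers were higher in Quchi and 2 of 7 in Yanglingquan. In Yanglingquan against sham 8 of 11 cardiomyocyte markers were higher too, with a summed level of 10.65 to 11.22 against 10.24 to 10.59, and 71.2% to 76.4% of probes were well above background against 82.0% to 88.0%. The part of these markers in the result was not tested.

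Bdkrb2 encodes the B2 bradykinin receptor and was well above background on all 24 arrays. On the sham arrays its level was −4.58, −4.27, −4.95 and −4.51, and on the IRI arrays −4.67, −4.69, −4.13 and −3.93. The Jiaji arrays read −4.33, −4.33, −4.14 and −4.02, and the Neiguan arrays −4.65, −4.51, −4.73 and −4.48. On the Yanglingquan arrays the level was −5.12, −4.98, −4.97 and −4.94, and on the Quchi arrays −4.65, −4.36, −4.73 and −4.36. The 4 Yanglingquan arrays lay close together and below all arrays of every other group except 1 sham array.

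Yanglingquan minus IRI was −0.65 ± 0.16 (limma adjusted p = 0.0131), the 1 call among 6 genes, against 12.1% of all genes. The call depended on the scaling: it was lost after quantile normalization (−0.37, adjusted p = 0.116), after normexp and quantile normalization (−0.20, 0.155) and with the authors' processed values (−0.38, 0.111), as well as with the 2 groups alone (−0.65, 0.0802) and without IRI replicate 3 (−0.56, 0.0529) or 4 (−0.51, 0.0589). Yanglingquan minus sham was −0.42 ± 0.16 (adjusted p = 0.0921), and no other difference of Bdkrb2 was called. The F test among the 4 acupoints gave an adjusted p of 0.00644, and 0.00238 on the second scan day alone. That F test held in 32 of 36 alternative settings, with a highest adjusted p of 0.532. In the same comparison 9 of 11 cardiomyocyte markers were higher in Yanglingquan, with a summed level of 10.65 to 11.22 against 10.21 to 10.38 in IRI, and 71.2% to 76.4% of probes were well above background, against 81.1% to 88.8% in IRI; their part in the result was not tested.

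Bdkrb1 encodes the B1 receptor and lies beside Bdkrb2, with 0 protein-coding genes between them in the RefSeq annotation. Its probe was well above background on 0 sham, 0 IRI and 0 Quchi arrays, on 3 of 4 Jiaji arrays, 2 of 4 Neiguan arrays and 1 of 4 Yanglingquan arrays. The Jiaji arrays read −5.11, −5.97, −8.31 and −5.00, and the Neiguan arrays −4.81, −5.23, −7.84 and −6.21. In both groups 1 array was as dim as the sham and IRI arrays, which read between −8.91 and −6.81. The measured means were −6.10 in Jiaji, −6.02 in Neiguan, −7.08 in IRI and −8.68 in sham. Set against the lowest well-measured signal of the dim arrays, the measured mean was 1.38-fold higher in Jiaji and 1.45-fold higher in Neiguan than in IRI. Against sham it was 1.48-fold and 1.56-fold higher. These are not lower bounds, since the means of Jiaji and Neiguan include arrays that were not well above background. The gene did not pass the filter on dim probes, so no adjusted p belongs to these folds. Without that filter Jiaji minus sham and Neiguan minus sham were called (limma adjusted p = 0.0118 and 0.0127) and neither difference from IRI was (0.430 and 0.415). In that same fit Agtr2, whose probe was well above background on 0 arrays, was also called against sham. Its limma adjusted p was 0.0371 in Jiaji, 0.0377 in Neiguan, 0.0235 in Quchi and 0.0039 in Yanglingquan. The Bdkrb1 calls without the filter are therefore not read as differences.

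**Figure D4:**
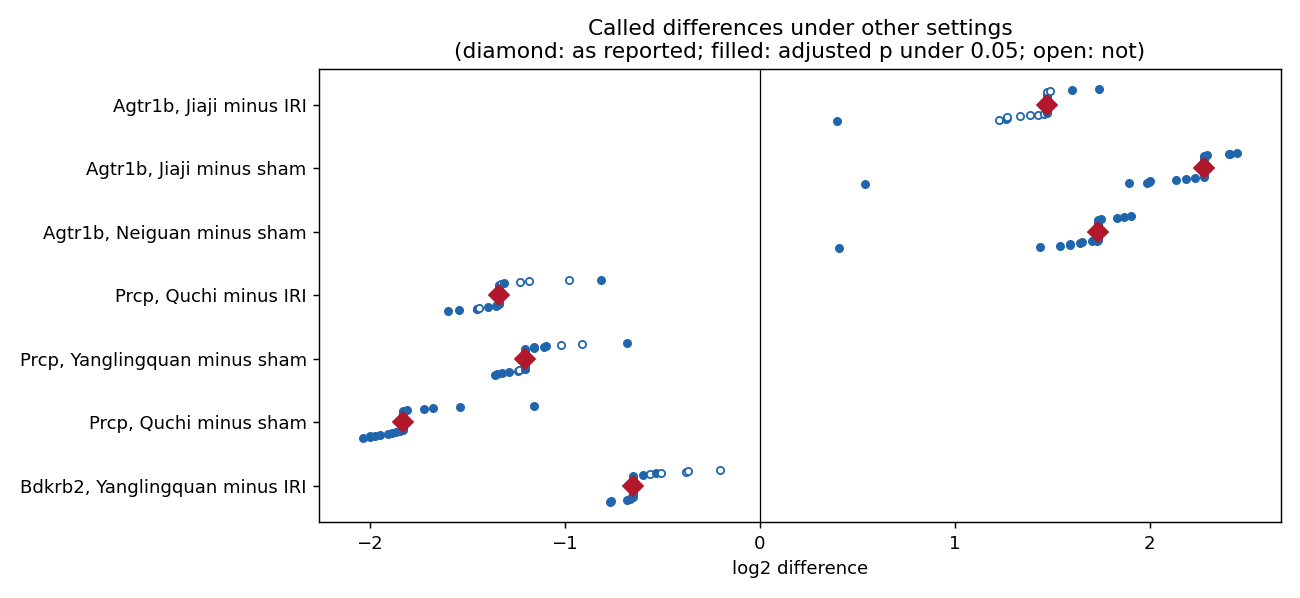
The 7 called differences of the set, on the log2 scale, as reported (diamond) and under each alternative setting (points, filled where the adjusted p is under 0.05). All points of a result keep its sign. Those of Agtr1b and Prcp in Jiaji, Neiguan and Quchi minus sham are filled throughout.

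Arrays of the compared groups did not overlap for Agtr1b in Jiaji and Neiguan against IRI and sham, for Prcp in Quchi against both and in Yanglingquan against sham, for Bdkrb2 in Yanglingquan against IRI, and for Agtr1a in Yanglingquan against sham. The share of all genes without overlap was 12.8% in IRI minus sham, where 0 of the 6 genes were free of it. Against IRI it was 15.9% for Jiaji, 15.3% for Neiguan, 15.6% for Yanglingquan and 9.21% for Quchi, with 1 of the 6 genes in each. Against sham it was 26.5% for Jiaji, 27.1% for Neiguan and 20.9% for Quchi, with 1 of 6 genes in each, and 16.5% for Yanglingquan, with 2 of 6.

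In the F tests, 3 of the 6 tested genes differed over the 6 groups, against 45.8% of all genes, and 4 of 6 among the 4 acupoints, against 39.1% of all genes. Agtr1b ran from Jiaji down through Neiguan, Quchi, IRI and Yanglingquan to sham, and the Jiaji and Neiguan arrays were the only neighbours in that order that did not overlap. Prcp ran from sham through IRI, Neiguan, Jiaji and Yanglingquan to Quchi with overlap between all neighbours. Bdkrb2 ran from Jiaji through IRI, Quchi, sham and Neiguan to Yanglingquan, and the last step was the only one without overlap.

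For each member that was well above background on all arrays, the 3 genes with the most similar levels over the 24 arrays were found among 10657 genes by Pearson's r. These are descriptions over arrays that share scans and groups. Agt lay closest to Pgf, which encodes placental growth factor (r = 0.85), Igf1, which encodes insulin-like growth factor 1 (r = 0.77), and Hils1 (r = 0.76). Agtr1a lay closest to Npr1, the receptor gene for atrial natriuretic peptide (r = 0.77), Spag1 (r = 0.73) and Ankrd13a (r = 0.72). Prcp lay closest to Ireb2, which encodes an iron regulatory protein (r = 0.88), Calcrl, the receptor gene for adrenomedullin and calcitonin gene-related peptide (r = 0.86), and Tor3a (r = 0.85). Ace lay closest to Fstl4 (r = 0.77), Etv3 (r = 0.76) and Krt90 (r = 0.73), and Bdkrb2 to Dffb (r = 0.80), Actrt2 (r = 0.79) and Camk1d (r = 0.79). Among the members themselves, Agt and Agtr1a were the most alike (r = 0.59), and Agtr1a and Prcp ran furthest apart (r = −0.39).

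The wider system was followed in 65 further genes on 5 lists, of which 54 were tested. In IRI against sham 1 of 54 was called, and it was higher, where 5.75% of all genes were called. That gene, Cyp11b2, passed the filter on dim probes only through IRI and Jiaji. Against IRI, 2 were higher and 1 lower in Jiaji, 0 and 1 in Neiguan, 0 and 5 in Yanglingquan, and 0 and 1 in Quchi, where the shares of all genes called were 10.2%, 5.63%, 12.1% and 3.44%. Against sham, 4 were higher and 2 lower in Jiaji, 4 and 1 in Neiguan, 4 and 4 in Yanglingquan, and 8 and 2 in Quchi, beside shares of 24%, 19.9%, 13% and 21.1%. The median difference of the 54 genes lay between −0.13 and 0.03 over the 9 comparisons, and that of all genes between −0.10 and 0.04. Of the 40 called differences, 28 were also called after quantile normalization.

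Among the 10 tested genes for making and breaking down angiotensins, those called in a comparison of groups were Enpep and Dpp4. Enpep, which encodes an aminopeptidase that turns angiotensin II into angiotensin III, was lower than IRI in Jiaji (−0.49 ± 0.13, limma adjusted p = 0.0198) and Neiguan (−0.49 ± 0.13, adjusted p = 0.0316), and these calls were lost in 8 and 9 of 37 alternatives. For Jiaji these include leaving out IRI replicate 2 or 4 or Jiaji replicate 2 (adjusted p between 0.0505 and 0.0716), and for Neiguan leaving out IRI replicate 2, 3 or 4 or Neiguan replicate 1, 3 or 4 (between 0.0632 and 0.112). Dpp4, which encodes a peptidase, was lower in Jiaji than in sham (−0.79 ± 0.26, adjusted p = 0.0348), which was lost without Jiaji replicate 1, 2 or 4 or sham replicate 2, 3 or 4 (between 0.0543 and 0.111) and at −0.50 with the mean of its probes (0.178). Cma1, the chymase gene of mast cells, Mme, the neprilysin gene, and Atp6ap2, which encodes an accessory subunit of the vacuolar proton pump, were called in 0 of 9 comparisons.

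**Figure D5:**
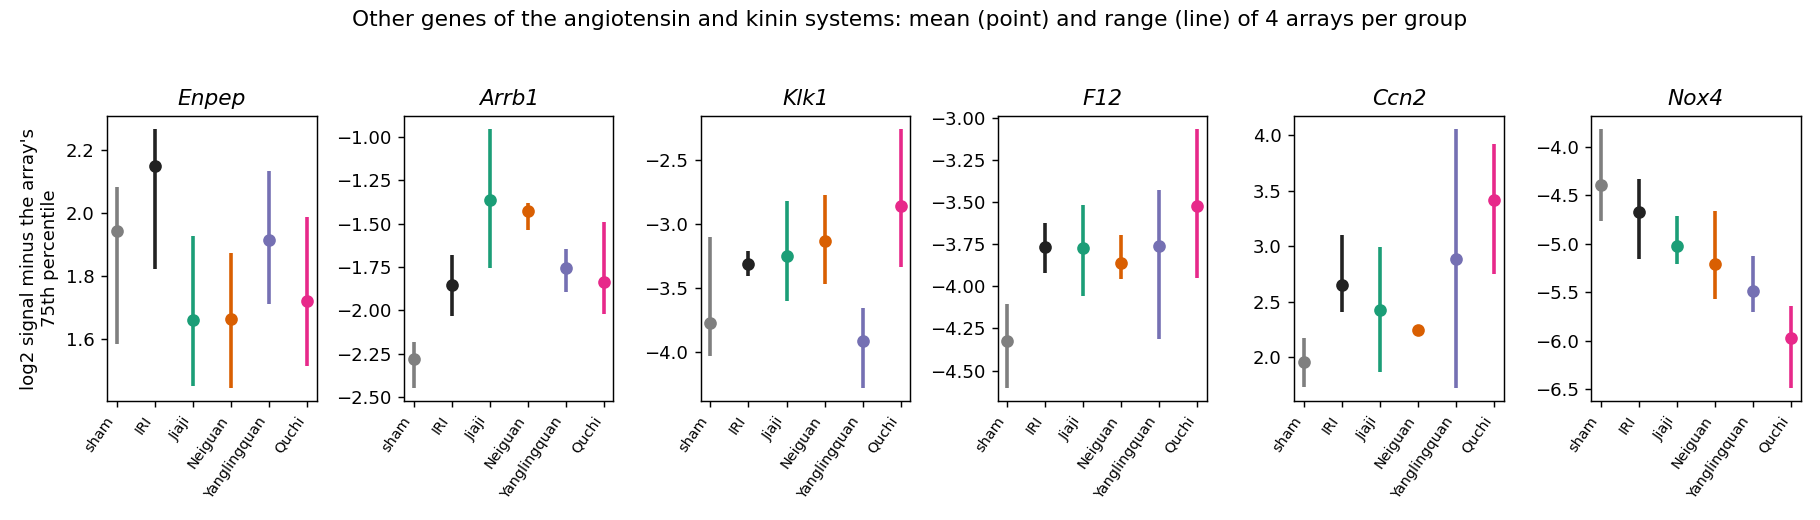
Level of 6 other genes of the system, on the log2 scale relative to the array's 75th percentile. Mean and range are of 4 arrays per group, or 3 for Enpep in Yanglingquan. They were picked for drawing after their values were seen. Arrb1 is lowest in sham, and Nox4 is lowest in Quchi.

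Among 15 tested genes of receptor partners and signalling, Arrb1, which encodes beta-arrestin 1, was higher than sham in all 4 acupuncture groups, by between 0.45 ± 0.15 in Quchi and 0.92 ± 0.15 in Jiaji (limma adjusted p between 9.93e-05 and 0.0348). IRI minus sham was of like size to the smaller of these, 0.43 ± 0.15 without overlap, and was not called (adjusted p = 0.0957), and Quchi minus IRI was 0.02. Its Jiaji and Neiguan calls against sham held in all 37 alternatives. Its difference of Jiaji from IRI, 0.49 ± 0.15 (adjusted p = 0.0364), was lost in 11 alternatives, among them without IRI replicate 1, 2 or 3 or Jiaji replicate 1 or 4 (between 0.0552 and 0.134). The Yanglingquan call was lost without Yanglingquan replicate 2 or 4 or sham replicate 2 or 4 (between 0.0517 and 0.0717), and the Quchi call without Quchi replicate 4 or sham replicate 2, 3 or 4 (between 0.0605 and 0.133). Both were also lost with scan day as a random block (0.0648 and 0.0733), and the Quchi call with median scaling (0.0665) and in a fit of the 2 groups alone (0.0835). Plcb1, a phospholipase C gene downstream of the type 1 receptor, was lower in Yanglingquan than in IRI (−0.94 ± 0.21, adjusted p = 0.00584), which held in all 37 alternatives, and its other probe gave −0.49 ± 0.32 there (adjusted p = 0.332). The probes of Plcb1 disagreed in Neiguan minus sham, at 0.09 on the first and −1.13 on the other. Grk2, a receptor kinase gene, was lower in Yanglingquan than in IRI and higher in Quchi than in sham, and these calls were lost in 24 and 7 of 37 alternatives. Mrgprd was called lower in Yanglingquan than in IRI and sham, but it was well above background on 0 Yanglingquan, 3 IRI and 2 sham arrays and has no fold there. Normexp with quantile normalization brought these differences to −0.06 (adjusted p = 0.689) and −0.10 (0.385). Mrgprd passed the filter on dim probes only through Quchi, where it was highest, so nothing is read from its call in Quchi against sham. Mas1, a receptor gene for a shorter angiotensin, was well above background on at most 2 of 24 arrays and was not tested.

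Of 14 genes for making and breaking down kinins only 7 could be tested. Kng1, the kininogen gene, was well above background on 4 of 24 arrays, and Kng2, Klkb1, Cpn1, Cpn2, Cpm and Cpb2 also failed the filter. Klk1, a tissue kallikrein gene with closely related neighbours that an array may not tell apart, was higher than sham in Quchi (0.91 ± 0.20, limma adjusted p = 0.00361), which held in all 37 alternatives, and in Neiguan (0.64 ± 0.20, adjusted p = 0.0299), which was lost in 11, among them without Neiguan replicate 4 or sham replicate 1, 3 or 4 (between 0.0629 and 0.134). F12, which encodes the factor that starts the contact system, was higher than sham in Quchi (0.80 ± 0.18, adjusted p = 0.00322). In Jiaji and Yanglingquan it was also called, at 0.55 and 0.56, and these fell short in 10 and 14 alternatives, for Jiaji at 0.17 after quantile normalization (adjusted p = 0.550). The Jiaji call was also lost without Jiaji replicate 2 or 3 or sham replicate 3 or 4 (between 0.0529 and 0.0922), and the Yanglingquan call without Yanglingquan replicate 1, 2 or 4 or any 1 sham array (between 0.0505 and 0.113).

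In the aldosterone branch of 6 tested genes, Cyp11b2, the aldosterone synthase gene, was well above background on 0 sham arrays and on 4 IRI, 4 Jiaji, 2 Neiguan, 2 Yanglingquan and 3 Quchi arrays. Against the lowest well-measured signal in sham it was at least 2.60-fold higher in IRI and 2.48-fold in Jiaji (limma adjusted p = 0.00400 and 0.00123). The same comparison gave 1.74-fold in Neiguan, 2.31-fold in Yanglingquan and 3.11-fold in Quchi (limma adjusted p = 0.0247, 0.00554 and 0.000523). Those 3 folds are not lower bounds, since arrays not well above background enter their means. The measured mean was −6.89 in sham and between −5.81 and −4.97 in the others. Cyp11b2 passed the filter on dim probes only through IRI and Jiaji. Nothing is therefore read from its calls in those groups against sham. After normexp and quantile normalization the calls other than that of Quchi were lost (adjusted p between 0.0713 and 0.136), and that of Neiguan was also lost without Neiguan replicate 1 (0.0592) or 4 (0.0692) or sham replicate 1 (0.0866). Of the same list, Cyp11b1 was higher in Jiaji than in IRI, Hsd11b2 lower in Yanglingquan than in sham, and Sgk1, an aldosterone target, lower in Quchi than in sham (−0.89 ± 0.27, adjusted p = 0.0246). Cyp11b1 was well above background on only 2 of 4 IRI arrays, which ranged from −7.53 to −4.66. Its difference of 1.98 fell to 0.44 at the lowest of the alternatives. The Sgk1 call was lost without Quchi replicate 1 or 2 or sham replicate 2 or 3 (between 0.0578 and 0.10) and with scan day as a random block (0.0513), and those of Cyp11b1 and Hsd11b2 in 7 and 10 alternatives.

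Of 16 tested genes known to respond to angiotensin II in heart, 2 were called in Yanglingquan and 1 in Quchi against IRI, all lower. The shares of all genes called there were 12.1% and 3.44%. Against sham 2 were called in Jiaji, 2 in Neiguan, 3 in Yanglingquan and 3 in Quchi, in both directions. Beside these stand shares of 24%, 19.9%, 13% and 21.1% of all genes, so the counts are not read as a result about the list. Ccn2, which encodes connective tissue growth factor, was higher in Quchi than in sham (1.46 ± 0.34, limma adjusted p = 0.00469), a call that held in all 37 alternatives. Nox4, an oxidase gene, was lower in Quchi than in sham (−1.57 ± 0.24, adjusted p = 0.000250) and than in IRI (−1.30 ± 0.24, adjusted p = 0.00403), and was well above background on 2 of 4 Quchi arrays. The first of these held in all 36 alternatives, and the second was lost when the 2 groups were fitted alone (adjusted p = 0.0978). Nox4 was also lower than sham in Yanglingquan (−1.09 ± 0.24, adjusted p = 0.00578), which held in all 36 alternatives, and in Neiguan (−0.81 ± 0.24, adjusted p = 0.0229), and lower than IRI in Yanglingquan (−0.82 ± 0.24, adjusted p = 0.0316). Only 1 of 4 Yanglingquan arrays was well above background for Nox4. The Neiguan call was lost in 5 alternatives, among them without Neiguan replicate 1 or 4 or sham replicate 2 (between 0.0787 and 0.0981). The call against IRI was lost in 11, among them quantile normalization (−0.45, 0.285) and leaving out IRI replicate 1, 3 or 4 or Yanglingquan replicate 1, 2 or 4 (between 0.0578 and 0.10). On its brighter probe Col1a1, a collagen gene, was lower in Yanglingquan than in IRI (−0.97) and sham (−1.0) and lower in Jiaji than in sham (−0.87). Its other probe gave −0.26, −0.13 and 0.09 there, none called (adjusted p = 0.308, 0.619 and 0.702). The calls of the brighter probe were lost in 7, 6 and 7 of 37 alternatives, among them the mean of the probes, no sex term and scan day as a random block. Single arrays also ended them: IRI replicates 2 and 4 and Yanglingquan replicate 3 the first, Yanglingquan replicate 3 and sham replicates 3 and 4 the second, and Jiaji replicates 1 and 2 and sham replicates 3 and 4 the last, with adjusted p between 0.0528 and 0.11. Col1a1 was the 1 gene of the list called between the sexes, lower in females (−0.96 ± 0.16, adjusted p = 0.0109). Thbs1 was higher than sham in Jiaji and Neiguan and Rcan1 in Yanglingquan and Quchi. These Thbs1 calls were lost in 10 and 7 of 37 alternatives and the Rcan1 calls in 21 and 13. The other probe of Rcan1 gave 0.16 and 0.14 there, neither called (limma adjusted p = 0.637 and 0.646).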

How the data were processed

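Heart muscle RNA of 24 rats, extracted with TRIzol, was labelled with Cy3 and hybridised to single-colour Agilent arrays, per the labels' protocols. The deposited intensity values are processed signals from Agilent Feature Extraction 11.0.1.1, per the file headers (10.7.3.1 per the submitters' processing notes), already background-subtracted. Control spots (1377 per array) and 8733 outlier spots over all arrays were left out, 0 spots were saturated, and spots of a probe were averaged. Levels are log2 intensity minus the array's 75th percentile. Accessions named 18005 of 30367 probes (59.3%) and 15168 genes through the RefSeq gene table. Probes had to be well above background on every array of 1 group or more, and each gene was tested on its brightest such probe, which left 12894 genes. limma 3.58.1 in R 4.3.3 fitted group and sex over all 24 arrays, with 17 residual degrees of freedom, Benjamini-Hochberg adjustment and a threshold of 0.05. The number of arrays limits the precision. The script was tested on simulated data.

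The deposited log2 table of the authors' processed values has columns that share their quantiles, so it was taken as quantile normalized; it served as an alternative. Other alternatives were quantile and median scaling, normexp (offset 50, on median spot signals), filters, probe choice, blocks and leaving out each array. The second scan day alone was added after seeing the data, and among the acupuncture arrays it leaves out only Quchi replicate 1. Genes named are the 8 members, genes of the wider lists called in any comparison, defining genes of the system, and the 3 most alike per member; the members and lists were chosen with earlier results of these data known. Replicate numbers did not pair the samples. Results of some genes of these lists are not reported here.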

Additional observations from a re-analysis of the deposited data

Results flagged for a closer look

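Single arrays stood apart from the other 3 of their group in 4 of 54 groups of a probe by Dixon's test, which chance alone gives in about 1 of 20. Agt read −4.08 on IRI replicate 4, above the other IRI arrays. Ace read −0.93 on sham replicate 1, above the other sham arrays. Agtr1b read −7.32 on Quchi replicate 1, below the other Quchi arrays, and that array was scanned on a day of its own. Agtr2 read −8.46 on sham replicate 2, above the other sham arrays, on a probe that was not well above background.

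Differences among the 4 acupoint groups passed the moderated F test in limma for 4 genes, with adjusted p of 0.0468 for Agt, 0.0152 for Agtr1b, 0.0160 for Prcp and 0.00644 for Bdkrb2. They held in 15 of 36 alternative settings for Agt, 33 of 35 for Agtr1b, 34 of 36 for Prcp and 32 of 36 for Bdkrb2. No scan holds more than 1 acupoint, so acupoint and scan cannot be told apart.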

How the results depend on the processing

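Of 60 results of the members, 0 called ones reversed in 38 settings, 22 uncalled ones turned sign in some setting and 13 gained a call in some setting. With every probe tested, calls numbered 2165 in IRI minus sham (742 as reported), 3067 in Jiaji minus IRI (1314), 1865 in Neiguan minus IRI (726), 3762 in Yanglingquan minus IRI (1563), 1166 in Quchi minus IRI (444), 7077 in Jiaji minus sham (3096), 6033 in Neiguan minus sham (2565), 4354 in Yanglingquan minus sham (1677), 6434 in Quchi minus sham (2720), 43 between the sexes (27), 12885 among the 6 groups (5907) and 10864 among the acupoints (5036); these count probes, not genes. With slide as a random block (correlation −0.10) they numbered, in the same order without the sexes, 1636, 2526, 1804, 3043, 1324, 4942, 4622, 3407, 4293, 8906 and 7564. No slide held more than 1 group, so that block cannot tell slide from group, though it counts among the alternatives. With scan day as a random block (correlation 0.07), calls numbered 715 in Jiaji, 412 in Neiguan, 917 in Yanglingquan and 179 in Quchi minus IRI, and 1556 in Neiguan and 876 in Yanglingquan minus sham. Median scaling gave 2369 in Jiaji minus IRI, 6864 in Jiaji minus sham and 4327 in Neiguan minus sham, and moved the median of all genes from −0.01 to −0.23, −0.09 to −0.36 and −0.10 to −0.24. Yanglingquan minus IRI gave 852 after quantile normalization, 711 after normexp, 858 with the authors' values and 913 with genes well above background on all arrays. Fits of 2 groups alone gave 32 in Quchi minus IRI, 788 in Yanglingquan minus sham and 1790 in Quchi minus sham. Between the sexes, normexp gave 47, the stricter filter 48 and the replicate block 3. Same-numbered arrays had a median correlation of −0.02 (−0.40 to 0.44), and 6 of 24 were closest to their own number; the replicate block changed no call of a member. The interaction of injury and sex gave 0 calls in limma (632 genes at an unadjusted p under 0.05) and 29 without the filter. Leaving out 1 array gave 440 to 958 in IRI minus sham, 858 to 1566, 456 to 897, 1071 to 1748 and 122 to 695 in Jiaji, Neiguan, Yanglingquan and Quchi minus IRI, and 2271 to 3240, 1657 to 2878, 837 to 1882 and 1562 to 3023 minus sham. It gave 21 to 73 between the sexes, 4806 to 6220 among 6 groups, 3903 to 5476 among acupoints and 0 to 70 for the interaction, the 70 without sham replicate 1. The cause of these changes was not tested. Genes well above background on all arrays do not include Agtr1b, so that setting has no value for it, and signal near background limits Agtr1b, Bdkrb1 and Agtr2.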
